A study of Saccharomyces cerevisiae with 6 samples.

Results

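The NOP, UTP and RRP genes of budding yeast are 53 of the 7126 genes in the deposited table, 17 named NOP, 18 named UTP and 18 named RRP. They were chosen by name alone, as every gene whose symbol is NOP, UTP or RRP followed by a number, and the rule uses no measured value. RNA was sequenced from BY4741, a haploid laboratory strain labelled wild type, grown overnight in synthetic complete (SC) medium with either glucose or glycerol as carbon source, with 3 libraries per carbon source. No gene was altered in one group and not in the other, and both groups came from the same strain. The study's general methods, written for rich medium with either carbon source, kept cultures at a low cell density, and its RNA methods give no density at harvest for the SC cultures. Growth rate was not given for these cultures, and its part in the results was not tested.

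Ribosomes are assembled in the nucleolus, where a long precursor rRNA is transcribed, modified, folded and cut while ribosomal proteins join it. Nop proteins are named for the nucleolus and belong to several machines, among them the box C/D and box H/ACA small nucleolar ribonucleoproteins (snoRNPs) that methylate and pseudouridylate rRNA and the particles that build the large subunit. Utp proteins are parts of the small-subunit processome, the U3 snoRNA particle that forms on the precursor of the 18S rRNA. Rrp proteins were named for defects in rRNA processing and include subunits of the RNA exosome, which trims RNA from its 3′ end, besides assembly factors of both subunits. In yeast, genes of this kind are known as the ribosome biogenesis regulon, and their promoters are known for the PAC and RRPE elements. Dot6 and Tod6 bind PAC, and Stb3 binds RRPE.

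The promoters of the NOP, the UTP and the RRP gene that fell most, and of the member that differed least, are shown here. They were picked by fold change, and all 4 hold both elements. Each covers 250 bases before and 50 bases from the start codon on, is taken from the RefSeq R64 assembly, and reads 5′ to 3′ on the strand of its gene, which for all 4 is the plus strand. Capitals mark the PAC core GATGAG and the RRPE core AAAATTTT. The windows lie at chrVII:695167-695466 for NOP7, chrVIII:491681-491980 for UTP9, chrIV:611823-612122 for RRP8 and chrII:227386-227685 for UTP20.
NOP7: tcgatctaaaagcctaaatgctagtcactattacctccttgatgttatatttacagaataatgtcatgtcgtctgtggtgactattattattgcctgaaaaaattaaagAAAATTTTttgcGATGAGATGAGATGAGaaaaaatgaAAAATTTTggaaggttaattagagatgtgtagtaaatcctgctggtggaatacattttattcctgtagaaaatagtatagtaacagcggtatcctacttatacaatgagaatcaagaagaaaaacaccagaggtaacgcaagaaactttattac
UTP9: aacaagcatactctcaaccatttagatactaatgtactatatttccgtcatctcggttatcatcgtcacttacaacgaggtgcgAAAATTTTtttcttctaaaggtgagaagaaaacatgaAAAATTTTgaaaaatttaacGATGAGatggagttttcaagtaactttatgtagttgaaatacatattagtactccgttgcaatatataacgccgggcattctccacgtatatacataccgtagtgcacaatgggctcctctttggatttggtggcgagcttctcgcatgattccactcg
RRP8: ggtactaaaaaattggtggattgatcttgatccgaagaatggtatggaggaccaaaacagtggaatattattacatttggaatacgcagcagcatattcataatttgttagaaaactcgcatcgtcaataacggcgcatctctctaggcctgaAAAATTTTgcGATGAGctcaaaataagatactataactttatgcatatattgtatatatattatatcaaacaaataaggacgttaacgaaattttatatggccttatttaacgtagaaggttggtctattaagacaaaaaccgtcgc
UTP20: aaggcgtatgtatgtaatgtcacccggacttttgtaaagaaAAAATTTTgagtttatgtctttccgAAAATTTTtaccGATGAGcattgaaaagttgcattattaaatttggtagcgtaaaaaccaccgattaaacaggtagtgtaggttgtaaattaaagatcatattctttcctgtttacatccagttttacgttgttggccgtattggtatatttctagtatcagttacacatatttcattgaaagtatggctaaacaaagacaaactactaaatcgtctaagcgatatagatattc
In the NOP7 promoter, 3 overlapping PAC cores start 129, 124 and 119 bases before the start codon, between RRPE cores at 141 and 104 bases. UTP9 has PAC at 109 bases and RRPE at 166 and 129 bases, and RRP8 has PAC at 87 bases and RRPE at 97 bases. UTP20, whose RNA differed least, also held both, with PAC at 172 bases and RRPE at 209 and 184 bases.

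The libraries held 15289163 to 20038052 counts, and every member had at least 74 counts in each. Levels are normalized CPM, that is, counts scaled to the library total times a TMM factor, meant to correct for differences in RNA composition, and 6330 genes were tested by edgeR's quasi-likelihood test at an adjusted p threshold of 0.05. Glucose libraries had TMM factors of 0.829 to 0.865 and glycerol libraries of 1.18 to 1.20, and cytosolic ribosomal protein genes took 24.1% to 27.5% of the counts in glucose and 5.45% to 6.47% in glycerol. The carbon source labels could be checked on GUT1, the glycerol kinase, with a log2 fold change (glycerol over glucose) of 3.14, and on HXT3, a low-affinity glucose transporter, with -6.45. LEU2, URA3 and MET17, which BY4741 lacks, had 0 counts in all 6 libraries, while HIS3, of which BY4741 lacks a part, had 662 to 1216.

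In glycerol, RNA of 50 of the 53 members was lower than in glucose, 0 were higher and 3 did not pass the threshold, by edgeR's quasi-likelihood test. Among all tested genes, 40.1% were called lower and 41.7% higher, 81.8% in either direction. All 53 log2 fold changes (glycerol over glucose) were below 0, so that no member was higher at an unadjusted p under 0.05 either, and limma-voom and DESeq2's Wald test also called 0 higher. The median log2 fold change of the members was -1.35, a 2.55-fold lower level, against 0.03 for all tested genes. At least 2-fold lower levels were called for 38 members, beside 21.4% of all tested genes, and at least 4-fold lower levels for 9 members, beside 6.51%. In 51 members every glycerol library lay below every glucose library, as it did in 40.8% of all tested genes. In bulk RNA, fewer cells that express a gene and less RNA per cell cannot be told apart.

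All values are relative to the rest of the RNA, and the scaling sets where 0 lies. With library totals alone, without TMM factors, the median of all tested genes moved to 0.52, 1652 genes were called lower and 3605 higher, in place of 2539 and 2637. Of the members, 43 were then lower, beside 26.1% of all tested genes, and 3 were higher, beside 57.0%, namely UTP10, UTP7 and UTP20. The members' median under that scaling was -0.85, or -1.37 relative to the median of all genes, against -1.38 relative to it with TMM factors. The signs of NOP19, RRP42 and RRP43 also turned there, without passing the threshold.

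The NOP genes had the lowest median of the name families. All 17 were lower, with a median log2 fold change of -1.74 and a range from -2.66 for NOP7 to -0.44 for NOP19. Of the 18 UTP genes, 15 were lower, with a median of -1.25, and all 18 RRP genes were lower, with a median of -1.22. The RRP genes spread least, with an SD of 0.476 between genes, against 0.629 for UTP and 0.669 for NOP, while the median standard error of a single fold change was 0.127 over the members. The families overlapped widely, and the difference between their medians was not tested.

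**Figure D1:**
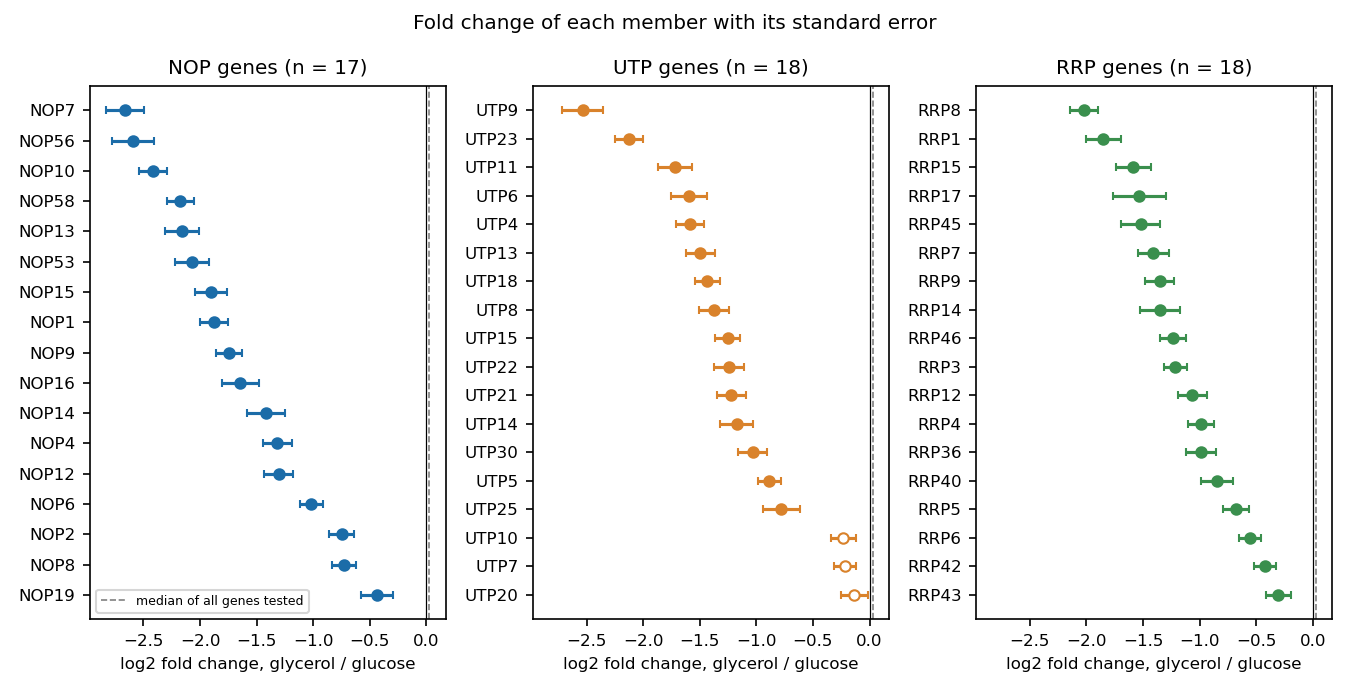
Log2 fold change (glycerol over glucose) of each NOP, UTP and RRP gene, with bars for the standard error, filled points for genes past the adjusted p threshold and a dashed line at the median of all tested genes. The 3 open points are UTP10, UTP7 and UTP20, and all 53 points lie left of 0.

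Summed over a family, the NOP genes had 7751, 6716 and 5796 normalized CPM in glucose libraries 1 to 3 and 1954, 1651 and 1510.2 in glycerol libraries 1 to 3. The UTP genes summed to 2879.5, 2471 and 2279.9 in glucose and to 1299, 1081 and 1059 in glycerol. The RRP genes summed to 2693, 2229 and 2052 in glucose and to 1168, 1065 and 1032 in glycerol. Each family was thus lower in every glycerol library than in any glucose library, by 3.96-fold for NOP, 2.22-fold for UTP and 2.14-fold for RRP between the group means. A sum gives more weight to genes of high level, and the median genes were lower by 3.35-fold for NOP, 2.38-fold for UTP and 2.34-fold for RRP. As a share of all counts, with no scaling, the members took 0.977% ± 0.120 (SD, n = 3) in glucose. In glycerol they took 0.468% ± 0.0537 (SD, n = 3). By that share the group means differed by 2.80-fold for NOP, 1.57-fold for UTP and 1.51-fold for RRP.

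**Figure D2:**
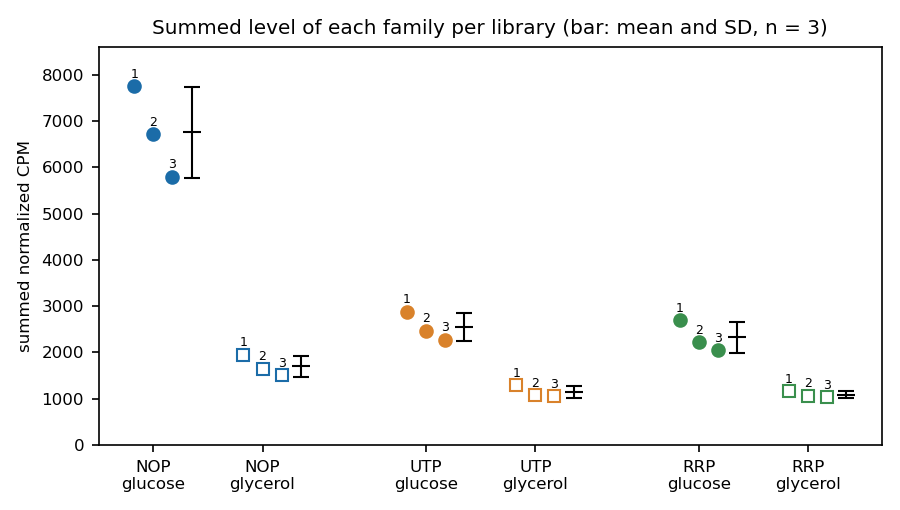
Summed normalized CPM of the NOP, UTP and RRP genes in each library, with the replicate number above each point and a bar for the mean and SD of 3 libraries. The NOP sum lay between 5796 and 7751 in glucose and between 1510.2 and 1954 in glycerol, and library 1 was highest in each group.

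The genes of the 4 box H/ACA proteins, which form the pseudouridylation particle, were all lower in RNA, with a median of -2.24. NOP10 (YHR072W-A, chrVIII:241664-241840), the smallest of them, had 417, 503 and 391 normalized CPM in glucose libraries 1 to 3 and 84.3, 85.2 and 76.1 in glycerol libraries 1 to 3. Its glycerol libraries were close together and all far below glucose, at a log2 fold change of -2.42 ± 0.12 (SE, adjusted p = 7.7e-11). CBF5, the pseudouridine synthase, had -2.01, GAR1 -2.30 and NHP2 -2.18, so the RNAs of the particle's 4 proteins lay within a narrow range.

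Genes for proteins of the box C/D snoRNPs, which methylate the ribose of rRNA, and for the U3-specific protein RRP9 were lower in RNA. This held for 5 of 5, with a median of -1.87. NOP56 (YLR197W, chrXII:546097-547611), a scaffold protein of the particle, had 1909, 1453 and 1114 normalized CPM in glucose libraries 1 to 3 and 294, 242 and 207 in glycerol libraries 1 to 3, a log2 fold change of -2.59 ± 0.18 (SE, adjusted p = 3.4e-09). NOP1 (YDL014W, chrIV:427364-428347), the fibrillarin methyltransferase, had 924, 879 and 917 in glucose and 289, 226 and 228 in glycerol, a log2 fold change of -1.87 ± 0.12 (SE, adjusted p = 1.5e-09). The glucose libraries differed among themselves for NOP56 and hardly for NOP1, and neither gene's groups overlapped. RRP9 (YPR137W, chrXVI:802359-804080), which binds U3 snoRNA, had 79.2, 67.0 and 56.0 in glucose and 27.9, 24.9 and 26.4 in glycerol, a log2 fold change of -1.35 ± 0.13 (SE, adjusted p = 7.9e-08). NOP58, the partner scaffold of Nop56, had -2.17 and SNU13, the snoRNA-binding protein, -1.26. The RNAs of this particle's proteins thus fell unequally. The ratio of NOP56 to NOP1 within a library, which no scaling can alter, was 2.07, 1.65 and 1.21 in glucose. In glycerol the same ratio was 1.02, 1.07 and 0.910. The ratio of NOP56 to NOP58, in contrast, overlapped between the groups.

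The large-subunit factors were lower in 14 of 14, with a median of -1.62. NOP7 (YGR103W, chrVII:695417-697234), the yeast pescadillo, had 1266, 1019.9 and 811 normalized CPM in glucose libraries 1 to 3 and 189.8, 162 and 137 in glycerol libraries 1 to 3. It had the lowest fold change of all members, at -2.66 ± 0.17 (SE, adjusted p = 8.5e-10), a 6.34-fold lower level, and glucose library 1 stood highest. Nop7 works in a complex with Erb1 and Ytm1, and these had -0.80 and -1.25. NOP7 counts per ERB1 count were 8.40, 6.77 and 5.32 in glucose and 1.81, 1.93 and 1.89 in glycerol, so the genes of this complex did not keep their ratio. At the other end stood NOP2 and NOP8. NOP2 (YNL061W, chrXIV:510540-512396), a methyltransferase of 25S rRNA, had 232, 228 and 206 in glucose and 149, 121 and 126 in glycerol, a log2 fold change of -0.75 ± 0.11 (SE, adjusted p = 1.4e-05). NOP8 (YOL144W, chrXV:53098-54552), needed for 60S subunit assembly, had 56.6, 51.2 and 47.0 in glucose and 32.9, 30.5 and 29.9 in glycerol, a log2 fold change of -0.73 ± 0.11 (SE, adjusted p = 1.4e-05). For both, all glycerol libraries were below all glucose libraries by less than 2-fold. With library totals alone, edgeR's test lost the NOP8 call, at -0.23 (adjusted p = 0.0589). NOP2 narrowly kept its call there, at -0.25 (adjusted p = 0.0488).

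RRP8, RRP1 and RRP15 had the lowest fold changes of the RRP genes and are large-subunit factors as well. RRP8 (YDR083W, chrIV:612073-613251), which methylates adenine in 25S rRNA, had 176, 161 and 139 normalized CPM in glucose libraries 1 to 3 and 45.0, 38.0 and 34.4 in glycerol libraries 1 to 3, a log2 fold change of -2.02 ± 0.13 (SE, adjusted p = 7.3e-10). RRP1 (YDR087C, chrIV:617470-618306), an early 60S assembly factor, had 185, 147 and 111 in glucose and 41.4, 45.0 and 36.8 in glycerol, at -1.85 ± 0.16 (SE, adjusted p = 2.6e-08). RRP15 (YPR143W, chrXVI:818323-819075), a component of pre-60S particles, had 177, 135 and 109 in glucose and 51.3, 48.1 and 40.3 in glycerol, at -1.59 ± 0.15 (SE, adjusted p = 1.3e-07). Groups did not overlap for any of these genes, and glucose library 3 was the lowest glucose library in each. The remaining large-subunit members were NOP13 (-2.16), NOP53 (-2.07), NOP15 (-1.90), NOP16 (-1.65), RRP17 (-1.53), RRP14 (-1.35), NOP4 (-1.32) and NOP12 (-1.30), each lower. RRP17, an exonuclease factor of 60S maturation, was the member of lowest level, and 79.8% of its length lies under the overlapping gene YDR413C. Libraries carried no strand, so reads of such a pair cannot be told apart, and 8 members overlap another annotated gene in part: NOP56, NOP58, NOP13, NOP4, RRP15, RRP17, RRP9 and RRP14.

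UTP-A, the first complex to join the precursor in the small-subunit processome, held the widest range of fold changes of the complexes described here. UTP9 (YHR196W, chrVIII:491931-493658) had 409, 324 and 223 normalized CPM in glucose libraries 1 to 3 and 61.8, 54.8 and 48.6 in glycerol libraries 1 to 3, a log2 fold change of -2.53 ± 0.18 (SE, adjusted p = 3.4e-09). UTP10 (YJL109C, chrX:212000-217309), a long HEAT-repeat protein of the same complex, had 157, 148 and 151 in glucose and 149, 118 and 122 in glycerol, a log2 fold change of -0.23 ± 0.11 (SE, adjusted p = 0.0608). UTP9 was several-fold lower in every glycerol library, whereas glycerol library 1 of UTP10 lay within the range of the glucose libraries. With the replicate number as a block, UTP10 passed the threshold at -0.24 (adjusted p = 0.0237), and with library totals alone it was called higher, at 0.26. Within a library, UTP9 counts per UTP10 count were 2.61, 2.196 and 1.48 in glucose and 0.416, 0.466 and 0.400 in glycerol. The pairs of genes set against each other as ratios were chosen after their values were seen and carry no test. Of the other UTP-A genes, UTP4 (-1.59), UTP8 (-1.38), UTP15 (-1.25), UTP5 (-0.89) and NAN1 (-0.59) were lower, so that 6 of the 7 UTP-A genes passed, with a median of -1.25.

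UTP-B, the processome complex that joins after UTP-A, changed more evenly. All 6 of its genes were lower, with a median of -1.33, from UTP6 (-1.60) through UTP13 (-1.50), UTP18 (-1.43) and UTP21 (-1.22) to DIP2 (-1.18) and PWP2 (-0.93), and the SD between them was 0.244. In UTP-C, which shares casein kinase 2 with other pathways, 6 of 6 were lower with a median of -1.31, among them RRP7 (-1.41), UTP22 (-1.24) and the kinase subunits CKA2 (-1.39) and CKB1 (-0.62). The MPP10 complex was lower in 3 of 3, with IMP3 at -1.71, IMP4 at -1.63 and MPP10 at -0.72. With library totals alone MPP10 (-0.23), CKB1 of UTP-C (-0.13) and NAN1 of UTP-A (-0.09) were not called.

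**Figure D3:**
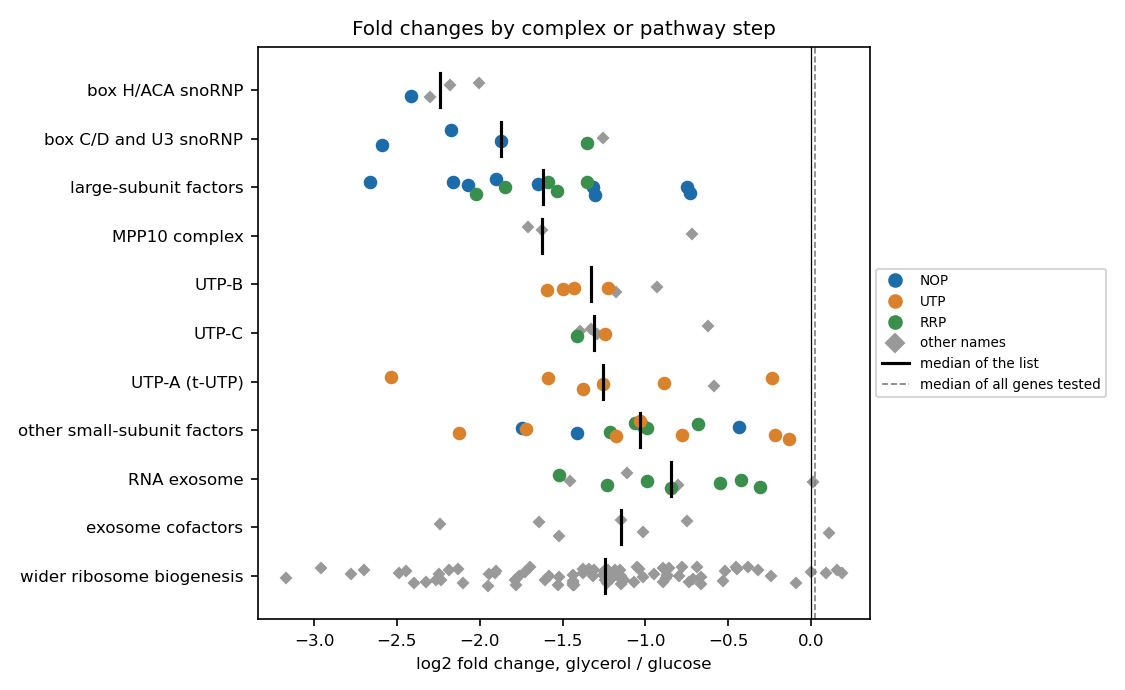
Log2 fold change (glycerol over glucose) of the members, coloured by name family, and of other genes of the same complexes or steps (grey), with a vertical bar at each list's median and a dashed line at the median of all tested genes. Medians ran from -2.24 for the box H/ACA snoRNP to -0.84 for the RNA exosome.

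Other small-subunit factors ranged more widely than UTP-B and less widely than UTP-A, with 13 of 15 lower and a median of -1.03. UTP23 (YOR004W, chrXV:333592-334356), which acts with the snoRNA snR30, had 89.0, 86.5 and 74.3 normalized CPM in glucose libraries 1 to 3 and 22.0, 18.3 and 17.0 in glycerol libraries 1 to 3, a log2 fold change of -2.12 ± 0.12 (SE, adjusted p = 3.3e-10). UTP11 (YKL099C, chrXI:255720-256472), a processome subunit, had 177, 155 and 108 in glucose and 47.9, 44.6 and 41.3 in glycerol, at -1.72 ± 0.15 (SE, adjusted p = 4e-08). Neither gene's groups overlapped. UTP7 and UTP20 were the others of the 3 members not called. UTP7 (YER082C, chrV:324272-325936), a WD-repeat subunit, had 122, 115 and 110.2 in glucose and 104, 95.6 and 99.2 in glycerol, a log2 fold change of -0.21 ± 0.10 (SE, adjusted p = 0.0518). UTP20 (YBL004W, chrII:227636-235117), a very long HEAT-repeat protein, had 155, 139.5 and 137 in glucose and 154, 119 and 119.9 in glycerol, a log2 fold change of -0.13 ± 0.12 (SE, adjusted p = 0.300). The UTP7 groups did not overlap but lay close together, and glycerol library 1 of UTP20 nearly equalled glucose library 1. The block brought UTP7 past the threshold, at -0.21 (adjusted p = 0.0327), and not UTP20 (adjusted p = 0.154). With library totals alone UTP7 had 0.28 and UTP20 0.36.

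NOP19 (YGR251W, chrVII:995639-996229), a small processome factor, had 47.6, 36.3 and 31.3 normalized CPM in glucose libraries 1 to 3 and 27.9, 27.4 and 29.8 in glycerol libraries 1 to 3, a log2 fold change of -0.44 ± 0.14 (SE, adjusted p = 0.00875). Its groups did not overlap but came close to each other at glucose library 3 and glycerol library 3, and without glucose library 1 the call was lost (adjusted p = 0.0681). RRP5 (YMR229C, chrXIII:725934-731123), which acts in the maturation of both subunits, had 246, 231 and 237 in glucose and 172, 133 and 141 in glycerol, a log2 fold change of -0.68 ± 0.11 (SE, adjusted p = 4.9e-05) that was not called with library totals alone (-0.18). The groups of RRP5 were well apart, with glycerol library 1 the nearest to glucose. The DEAD-box helicase RRP3 had -1.21, the subunit export factor RRP12 -1.06, RRP36 -0.99, NOP9 -1.74, NOP14 -1.41, NOP6 -1.02, UTP14 -1.17, UTP30 -1.03 and UTP25 -0.78, each lower. UTP25 was not called with library totals alone, at -0.28.

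The RNA exosome had the median nearest to 0 of these complexes, at -0.84, with 10 of 11 subunit genes lower in RNA. The ring subunits RRP45 (-1.52), MTR3 (-1.46), RRP46 (-1.23) and SKI6 (-0.80) and the cap subunits CSL4 (-1.11), RRP4 (-0.99) and RRP40 (-0.84) were lower. RRP42 (YDL111C, chrIV:263313-264110), also of the ring, had 79.3, 76.2 and 79.7 normalized CPM in glucose libraries 1 to 3 and 55.9, 62.9 and 56.8 in glycerol libraries 1 to 3, a log2 fold change of -0.42 ± 0.10 (SE, adjusted p = 0.000868). RRP43 (YCR035C, chrIII:191834-193018), another ring subunit, had 121, 98.0 and 92.0 in glucose and 82.1, 83.8 and 85.3 in glycerol, at -0.31 ± 0.11 (SE, adjusted p = 0.0194). Both were lower in every glycerol library by a small margin, and the signs of both turned with library totals alone (0.07 and 0.19). The RRP43 call was lost when glucose library 1, glycerol library 1, glycerol library 2 or glycerol library 3 was left out (highest adjusted p = 0.123). RRP6 (YOR001W, chrXV:326832-329033), the nuclear 3′ exonuclease, had 147, 144 and 159.7 in glucose and 103, 97.4 and 107 in glycerol, at -0.55 ± 0.10 (SE, adjusted p = 9.1e-05), and was not called with library totals alone (-0.06). DIS3, the other catalytic subunit, had 123, 133 and 139 in glucose and 130.3, 131 and 137 in glycerol, with overlapping groups and a log2 fold change of 0.01 ± 0.10 (SE, adjusted p = 0.903), and was called higher with library totals alone, at 0.51. The ratio of RRP45 to RRP43 was 1.63, 1.33 and 1.27 in glucose and 0.707, 0.626 and 0.518 in glycerol. Even for subunits of one ring, then, the RNAs shifted against each other. Of 7 exosome cofactors 6 were lower, with MPP6 at -2.24, the helicase MTR4 at -1.02 and LRP1, the partner of Rrp6, at -1.15, while AIR2 had 0.11 and was not called. AIR2 was called higher (0.60) and the cofactor TRF5 was not called (-0.25) with library totals alone.

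A wider list of 79 ribosome biogenesis genes outside the name families was drawn up from general knowledge of the pathway. Of these, 74 were lower, beside 40.1% of all tested genes, and 5 were not called. The list's median was -1.24, close to that of the UTP and RRP genes. With library totals alone, 63 of the list were called lower and 6 higher. The lowest was CGR1, a large-subunit factor, at -3.17, below every member. The 5 not called were NOC4, RCL1, DBP6, MDN1 and RSA1. Of the 5 genes known as regulators of the regulon, all were higher in glycerol, beside 41.7% of all tested genes. They were the activator SFP1 (1.78), the repressors TOD6 (1.25) and DOT6 (0.72), STB3 (1.12) and the kinase SCH9 (0.87). Cytosolic ribosomal protein genes were lower in 128 of 132, beside 40.1% of all tested genes, and higher in 1. Their median was -2.47, below that of each name family.

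In these genes, library 1 was most often the highest and library 3 most often the lowest of its group, with either carbon source. In glucose, library 1 was the highest of its group for 47 of the 53 members (88.7%), against 35.6% of all tested genes, and library 3 the lowest for 37. In glycerol, library 1 was the highest for 41 (77.4%), against 33.2% of all tested genes, and library 3 the lowest for 33. Library 2 lay near its group mean, with a median log2 deviation of -0.040 in glucose and -0.034 in glycerol. Genes of the same libraries are not independent replicates, so these counts only describe the order of the libraries. The labels do not say what the numbers share. Library 1 was highest in glucose for 15 of 17 NOP, 16 of 18 UTP and 16 of 18 RRP genes and in glycerol for 15, 15 and 11 of them. With the number as a block, 52 members were called lower, and leaving out 1 library at a time gave 48 to 51.

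In glucose the NOP genes stood above the others in level per length, with a median of 272 normalized CPM per kilobase, against 64.6 for UTP and 100.1 for RRP. In glycerol the same medians were 71.1, 25.3 and 47.8, in the same order. Levels in glucose ran from 14.7 per kilobase for RRP17 to 2471 for NOP10. Genes of higher level in glucose had lower fold changes, with a Spearman correlation of -0.59 across the 53 members and of -0.59 across all 6330 tested genes. The glucose level enters both measures, and genes of the same libraries are not independent replicates, so the value is a description.

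**Figure D4:**
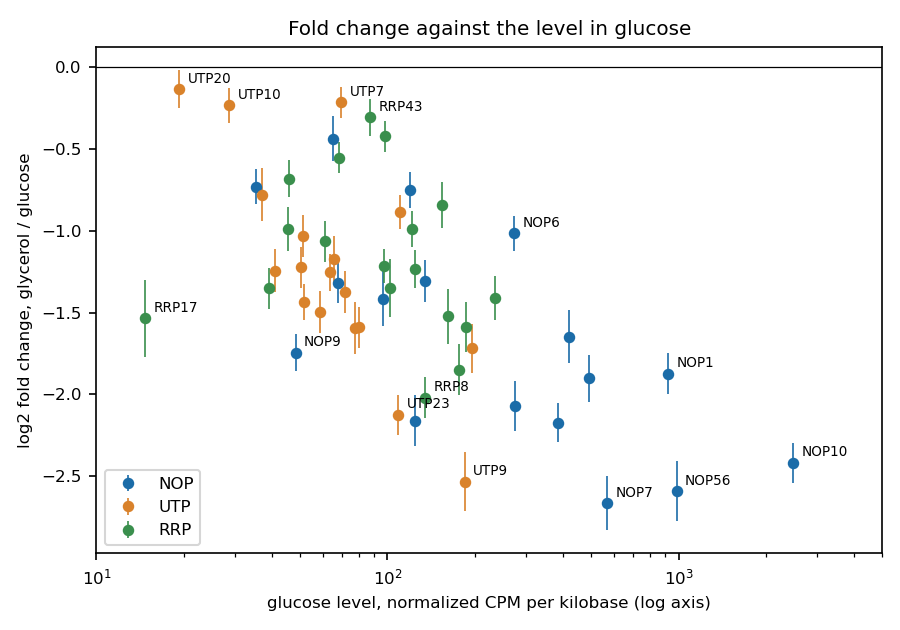
Log2 fold change (glycerol over glucose, bars for the standard error) against the level in glucose in normalized CPM per kilobase on a log axis, 1 point per member coloured by family. UTP20 and UTP10 sit at the upper left, at 19.2 and 28.6 per kilobase, and NOP10 at the lower right, at 2471.

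Among the UTP genes, longer genes had fold changes nearer to 0. The Spearman correlation of gene length with log2 fold change was 0.51 across the 18 UTP genes, 0.30 across the RRP genes and 0.00 across the NOP genes, as a description with no test. The 5 members of at least 3000 bases, RRP12, RRP5, UTP10, UTP20 and UTP22, had a median of -0.68, against -1.53 for the 18 members under 1000 bases. Other tested protein-coding genes went the same way by less, with medians of 0.37 at 3000 bases or more and -0.15 under 1000 bases. The part of length in the fold changes was not tested.

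The PAC core GATGAG, searched on both strands of the 300-base windows, was found in 44 of the 53 member promoters (83.0%), against 20.2% of 6663 promoters. The Wilson 95% interval of the members' share was 70.8% to 90.8% and covers counting error only. NOP promoters held it in 16 of 17, UTP promoters in 15 of 18 and RRP promoters in 13 of 18. The RRPE core AAAATTTT, which is its own reverse complement, was found in 31 of 53 (58.5%, interval 45.1% to 70.7%), against 8.34% of all promoters, in 10 of 17 NOP, 13 of 18 UTP and 8 of 18 RRP genes. PAC matches can overlap each other by 1 base, as in NOP7, RRPE matches cannot, and GATGAG and AAAATTTT share no end base and cannot overlap each other. The wider list of 79 genes had PAC in 89.9% and RRPE in 83.5%.

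Both cores stood in 27 member promoters (50.9%), against 4.25% of tested genes with a scanned promoter. A PAC alone was in 17, an RRPE alone in NOP53, RRP6, RRP7 and UTP15, and neither in RRP42, RRP45, RRP46, UTP22 and UTP30. All of the last 5 genes were nevertheless lower in glycerol, with a median log2 fold change of -1.23, against -1.35 for members with both, -1.38 for PAC alone and -1.33 for RRPE alone. Among the members, then, the medians hardly differed with the cores present. Among the 6091 other tested genes with a scanned promoter, those with both had a median of -1.21, with 190 of 234 lower, and those with neither a median of 0.14. Those with PAC alone had a median of -0.013, with 393 of 941 lower, and those with RRPE alone -0.66, with 165 of 273 lower. These other genes include the wider list of ribosome biogenesis genes, which was not set apart.

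Matches in members were more often 80 to 200 bases before the start codon than matches in all promoters, while the medians were alike. The 65 PAC matches in members began at a median of 119 bases before the start codon, against 114 in all promoters, and 73.8% began in that stretch, against 47.4%. The 39 RRPE matches had a median of 133 bases, against 137, with 89.7% in the same stretch, against 70.6%. Of the PAC matches, 40 lay on the strand of the gene and 25 on the other. In complexes, PAC was in 6 of 6 UTP-B and 13 of 14 large-subunit promoters and in 0 of 6 UTP-C promoters, where the 95% Wilson interval reaches 39.0%. A match says only that the letters occur, and binding of a factor was not measured.

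**Figure D5:**
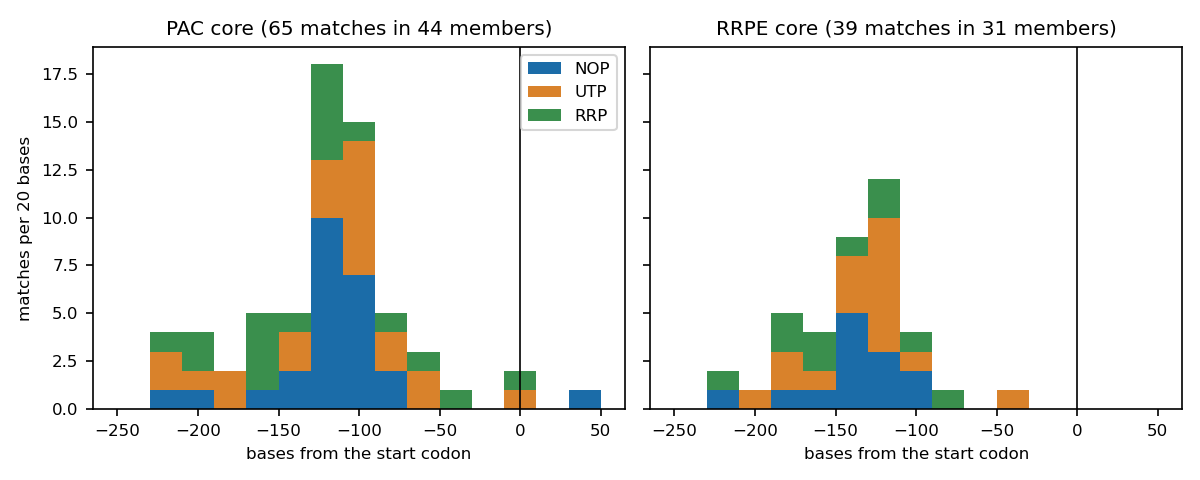
Positions of PAC (left) and RRPE (right) core matches in the members' promoters, as bases from the start codon (0), counted per 20 bases and stacked by family. The median position was 119 bases before the start codon for PAC and 133 bases for RRPE.

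Some members lie next to other genes of the pathway. RRP3 and SSF1, a large-subunit factor, are transcribed away from each other with 297 bases between them and had -1.21 and -1.23. UTP9 and RIX1, in the same direction 237 bases apart, had -2.53 and -1.38, and RSA3 and UTP13, 293 bases apart, had -2.96 and -1.50. RRP15 and NOC4, which converge with 689 bases between them, had -1.59 and -0.09. The fold changes were alike in the divergent pair alone, and so few pairs cannot show a pattern by arrangement.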

How the data were processed

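Poly(A) RNA from 6 samples was sequenced as paired-end, unstranded libraries. According to the submitters' processing notes, fastp 0.20.1, HISAT2 2.2.1, featureCounts 2.0.1 and DESeq2 were used with genome build R64, and their settings are not given in the sources used here. The authors deposited whole-number counts per gene, not normalized, beside FPKM values, which were not tested here, and gene lengths. The authors' own fold changes (glucose against glycerol) with p-values and adjusted p-values were not used. No per-sample column was left unused.

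Groups and replicate numbers came from the sample titles. A gene was kept where 3 or more libraries had 10 or more counts (6330 of 7126 genes), and tested in R 4.3.3 with edgeR 4.0.16 (TMM factors, quasi-likelihood test, Benjamini-Hochberg adjustment over all tested genes, threshold 0.05). With 3 libraries a group, an exact permutation test of 1 gene cannot go below p = 0.1 and was not used. The study's methods call the 3 libraries of a condition biological replicates, and p-values measure the spread between them. Replicates differed by more than counting noise (chi-square per degree of freedom 16.4 to 63.7). Alternatives were library totals alone, DESeq2 size factors, TMM without ribosomal protein genes, DESeq2 1.42.0, limma-voom (limma 3.58.1), other count filters, a replicate block, leaving out each library, and other windows and cores for the promoter search. The main test was also run on simulated counts, where few genes changed, in both directions, with no set shift in RNA composition and no pairing. That run cannot show whether the scaling holds for these data.

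Deviations from the group means correlated between libraries of the same number at 0.246, 0.102 and 0.281 over the 5667 genes whose mean count reached 100, and between other pairs at -0.29 to 0.0542. Over these 5667 genes all 3 passed 0.1, number 2 narrowly, so the numbers were taken as pairs in an alternative fit, on the data alone. Over all 6330 tested genes the same correlations were 0.128, 0.0464 and 0.131, and number 2 did not pass there. The main test used no pairs, and the fit with the number as a block is given beside it.

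The naming rule uses no measured value, but the name families and the lists were picked as a topic with earlier results of these data known. Library values are given for the 3 lowest and 3 highest fold changes of each family, for members not called, and for NOP1, RRP9, RRP5 and RRP6. Promoters were cut from RefSeq R64, where all 53 members have the coordinates of the deposited table. Python 3.11.15 with matplotlib 3.10.9 was used for the promoter search and the figures.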

Additional observations from a re-analysis of the deposited data

How the results depend on the processing

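The members' count of lower calls ran from 43 to 52 of 53 over the alternatives, with 50 in the main fit. By family it ran from 15 to 17 of 17 NOP, 14 to 17 of 18 UTP and 14 to 18 of 18 RRP genes. Calls of 10 members changed with library totals alone. Every family median stayed below 0. With library totals alone, the all-gene count lower was 1652 and the all-gene median 0.52, the members' median was -0.85 with 3 called higher, the NOP median -1.25, the UTP median -0.75 with 3 called higher and the RRP median -0.73. Signs turned there for UTP10 (0.26), UTP7 (0.28), UTP20 (0.36), RRP43 (0.19), RRP42 (0.073) and NOP19 (0.061). The all genes tested median log2 fold change was -0.0165 with TMM factors from genes other than ribosomal protein genes, -0.00189 with a minimum of 100 counts, 0.0786 with no count filter, and 0.000792 to 0.0409 with 1 library left out. With the replicate number as a block 52 members were lower, UTP10 and UTP7 added, and no member lost its call. DESeq2's Wald test called 51 lower and limma-voom 52. Without glucose library 1, 48 were called, the lowest count with 1 library left out, and without glucose library 3, 51, the highest, with UTP7 added. Without glycerol library 1, UTP10 was called and RRP43 was not. With a longer core, PAC extended by GC at its 5′ end was in 45.3% of member and 3.63% of all promoters, and RRPE extended by TGA at its 5′ end in 30.2% and 2.15%. The longer PAC core was in 61.1% of UTP, 47.1% of NOP and 27.8% of RRP promoters, another order than with GATGAG. It was in 0 of 5 box C/D and U3 snoRNP promoters and 0 of 4 box H/ACA promoters, all of which held GATGAG. Over the 250 bases before the start alone, GATGAG was in 81.1% of member and 16.9% of all promoters. At the depth of these libraries no member was near the count minimum, with RRP17 the lowest at 74 counts. The causes of these shifts were not tested.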
